A study of Rattus norvegicus with 24 samples.

Results

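Fbxo32, Trim63 and Asb2, genes for muscle ubiquitin ligases, were followed across 6 intratracheal exposures in the rat heart. All probe sets whose annotation names only one of these genes were taken, which gave 3 probe sets, 1 per gene, of the 15866 probe sets tested and 3 of the 10411 genes represented by a probe set of 1 symbol. The Fbxo32 probe set (1369188_at, designed from NM_133521) reports a gene at chr7:91620925-91654491, the Trim63 probe set (1387804_at, NM_080903) a gene at chr5:151817209-151831026, and the Asb2 probe set (1372280_at, the expressed sequence tag BI295982) a gene at chr6:128239550-128275833, by the RefSeq annotation of the rat assembly GRCr8. Which exons or untranslated regions the probes lie in was not analysed here.

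RNA from the left ventricle plus septum of 24 male Wistar Kyoto rats, 12 to 14 weeks old at the start, was hybridized to 1 Affymetrix rat expression array per rat, with 4 rats in each group. Each rat received 1 intratracheal instillation a week, of 1 ml/kg under halothane anesthesia, and hearts were taken 48 hr after the last instillation. The study asked whether injury of the heart follows from zinc that leaches out of combustion particles or from inflammation of the lung where particles settle. Exposure ran for 8 weeks in the saline, MSH, PM-HD and zinc sulfate rats, and the sources used here state no duration for the PM-LD and PM-L arrays. Saline was the control. MSH was Mount St. Helens ash, a particle without water-soluble zinc or other soluble metals. PM-HD was a whole suspension of oil combustion particles labelled with 14.5 μg/mg of zinc and 3.0 μg/mg of nickel, both water soluble. PM-LD was the same suspension at a lower dose, labelled with 7.25 μg/mg of zinc and 1.5 μg/mg of nickel. PM-L was the soluble fraction of the suspension, filtered free of solids, and zinc sulfate was the metal salt alone, for which one label gives 14.5 μg/ml of zinc and the protocol gives 33.4 μg/ml. In the methods that protocol concentration belongs to the longer of the study's exposures, and rats of the shorter one, as here, were given a higher concentration.

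Ubiquitin ligases attach ubiquitin to chosen proteins and so send them to the proteasome. Fbxo32, known as atrogin-1 or MAFbx, is the F-box subunit of an SCF ligase built on cullin 1, and Trim63, known as MuRF1, is a RING-finger ligase of the sarcomere that marks thick-filament proteins. Both are textbook markers of muscle wasting, since FOXO transcription factors and glucocorticoids raise them when insulin and growth factor signals through AKT fade. Asb2 is the substrate-binding subunit of a cullin 5 ligase with elongins B and C, and it marks filamins and desmin during muscle differentiation.

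The promoter windows of Trim63 and Asb2 are shown because Asb2 was the one of the 3 genes whose signal differed between exposures by the study thresholds, and Trim63 is a well-known target of FOXO factors. RefSeq windows (GRCr8) were found for 2 of the 3 genes. Each window holds 300 bases, at chr5:151816986-151817285 on the plus strand for Trim63 and at chr6:128275601-128275900 on the minus strand for Asb2. By the gene coordinates above, the Trim63 window lies mostly upstream of the gene and the Asb2 window mostly inside it. Asb2 has 5 annotated transcripts, and which transcript start its window belongs to was not examined. Capitals mark matches to the motifs that were searched on both strands.
Trim63: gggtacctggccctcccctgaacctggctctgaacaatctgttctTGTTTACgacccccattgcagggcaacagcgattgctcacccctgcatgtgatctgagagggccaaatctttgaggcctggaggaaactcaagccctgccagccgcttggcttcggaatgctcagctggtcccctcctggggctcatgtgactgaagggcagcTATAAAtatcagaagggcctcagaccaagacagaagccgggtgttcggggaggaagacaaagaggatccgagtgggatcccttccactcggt
Asb2: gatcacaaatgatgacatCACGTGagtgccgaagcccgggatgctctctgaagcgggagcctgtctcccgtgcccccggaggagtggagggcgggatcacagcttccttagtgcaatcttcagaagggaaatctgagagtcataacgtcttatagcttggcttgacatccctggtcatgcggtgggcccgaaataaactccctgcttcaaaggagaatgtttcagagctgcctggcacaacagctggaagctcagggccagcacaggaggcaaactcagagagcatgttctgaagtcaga
The FOXO core TGTTTAC stood at position 46 of the Trim63 window, counted from its first base, and the TATA box letters TATAAA at position 209. The Asb2 window held CACGTG, the E-box of clock factors, at position 19. The FOXO core was found in 3.78% of 33469 RefSeq promoter windows of the same length, TATAAA in 14.2% and CACGTG in 6.42%. The palindromic glucocorticoid response element (AGAACA and TGTTCT, with any 3 bases between them) was in 0.0149% of all windows and had no full match in either of these. The Trim63 window held, at position 31 and next to the FOXO core, a stretch that differs from it at 1 of its 12 defined bases, a closeness found in 0.215% of windows, and the closest stretch of the Asb2 window differed at 4. A match is a description of letters and not of a bound site.

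Signals are given as the linear, unitless brightness that the authors' software computed for a probe set, and they allow rats to be compared for 1 gene but not 1 gene with another. The Fbxo32 probe set was dim, above 30.1% of all probe sets in mean signal, so its values lie close to the range where background weighs most. The Trim63 probe set was brighter than 88.2% and the Asb2 probe set brighter than 98.7% of probe sets. The tissue was ventricular by its markers, with Myl2 between 19809 and 41465 on every array. Of 7 skeletal muscle markers, 6 stayed at or under 247.6, and the probe set named Myh1 read 11231 to 28596. The spread of atrial markers was wide. The mean log2 value of Nppa, Myl7, Myl4 and Sln exceeded 11 on 6 arrays (saline replicate 1, MSH replicate 1, PM-LD replicate 2, PM-L replicates 2 and 4, and zinc sulfate replicate 2). The 3′/5′ ratio of Gapdh control probe sets, which grows as RNA is degraded, exceeded 3 on 9 arrays, with group medians of 1.50 for zinc sulfate, 1.56 for PM-LD, 1.87 for saline, 2.33 for PM-L, 2.76 for MSH and 3.03 for PM-HD. The array title of saline replicate 1 carries a number apart from the run of the others.

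**Figure D1:**
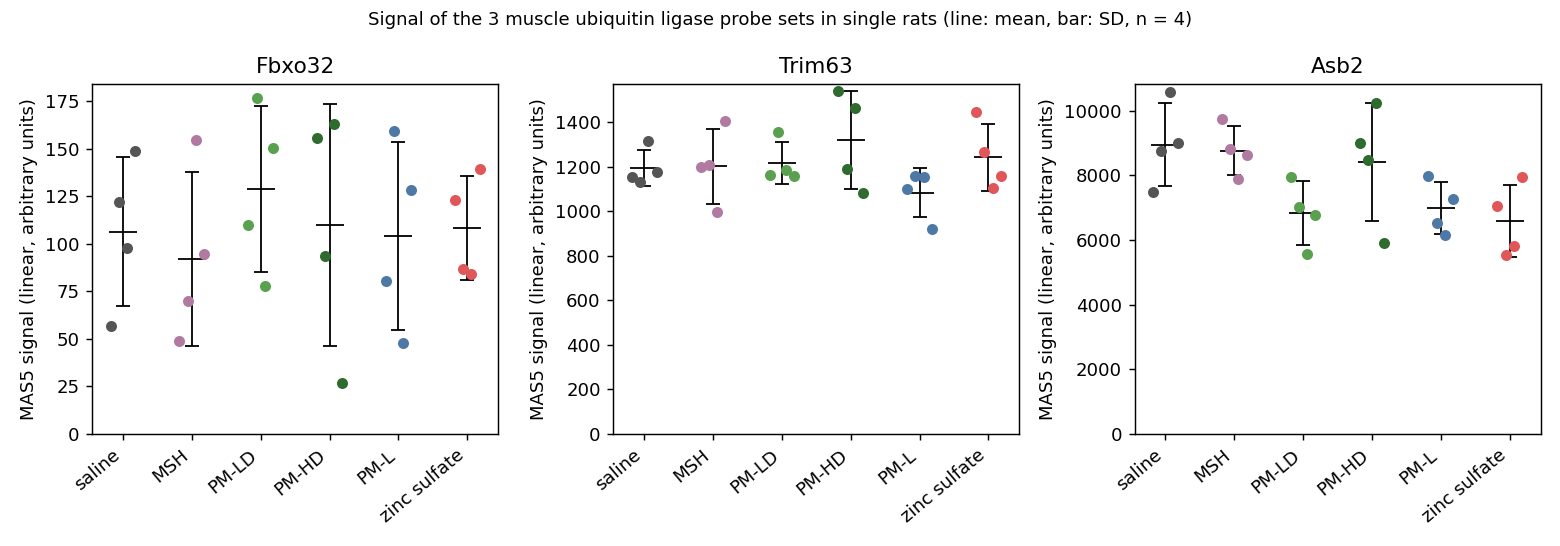
Signal (linear, arbitrary units) of Fbxo32, Trim63 and Asb2 on each of 24 arrays, by exposure group, with the mean (line) and SD (bar, n = 4 rats). Fbxo32 spread from 26.8 to 176.7 with every group overlapping, Trim63 stayed between 921.1 and 1542.3, and Asb2 was lowest in the zinc sulfate group, at 5533.8 to 7949.

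Fbxo32 did not separate the exposures. In saline rats the signal was 56.4, 122.1, 97.5 and 148.6 in replicates 1 to 4, with a mean of 106 ± 39.2 (SD, n = 4). In MSH rats it was 48.8, 69.9, 154.6 and 94.6, and in zinc sulfate rats 122.9, 86.4, 83.9 and 139.5. The lowest and the highest rats within a group thus lay further apart than any group means. PM-LD rats had 109.7, 176.7, 77.8 and 150.3, with a mean of 129 ± 43.7, the highest of the 6. PM-HD rats had 155.6, 93.5, 163.2 and 26.8, where the last is the lowest value of all 24 arrays. PM-L rats had 80.2, 159.5, 47.9 and 128.2. From high to low the group means ran PM-LD, PM-HD, zinc sulfate, saline, PM-L and MSH, at 129, 109.8, 108, 106, 104 and 92.0, and every neighbour in that order overlapped and differed by less than the SD.

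Against saline, the log2 fold change of Fbxo32 was between -0.28 (MSH, SE 0.42, exact permutation p = 0.514) and 0.28 (PM-LD, SE 0.44, exact permutation p = 0.486), and it passed no threshold in any of 8 comparisons. The 95% interval of the fold was 0.443 to 1.54 for MSH and 0.602 to 2.10 for zinc sulfate, so that changes of the size of the study limits (above 1.25 or below 0.75) were not detectable with these arrays. Without PM-HD replicate 4, the log2 fold change of PM-HD against saline moved from -0.09 to 0.37. That array was also the lowest PM-HD array for Trim63 and Asb2, and its Gapdh ratio was 4.81.

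No exposure moved Trim63 past the thresholds, and its rats lay closer together. The saline rats had 1152.5, 1132, 1314.9 and 1175.5 (1194 ± 82.7, n = 4), and the MSH rats 1200.8, 1205.7, 994.2 and 1405.8 (1202 ± 168). The 2 groups overlapped fully. PM-LD rats had 1162.2, 1355, 1187.3 and 1156.1 (1215 ± 94.2), and PM-HD rats 1542.3, 1189.5, 1464.2 and 1079.7 (1319 ± 219.8), the highest mean. PM-L rats had 1097.8, 1156.6, 1155.3 and 921.1 (1083 ± 111), the lowest mean, and zinc sulfate rats 1444.2, 1265.8, 1104.1 and 1156.4 (1243 ± 150.3). All neighbours in the order of means overlapped and differed by less than the larger SD.

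The log2 fold change of Trim63 against saline ran from -0.13 (PM-L, SE 0.14, exact permutation p = 0.286) to 0.13 (PM-HD, SE 0.16, exact permutation p = 0.371). With zinc sulfate it was 0.05 (SE 0.16, exact permutation p = 0.657), with a 95% interval of the fold of 0.819 to 1.30. For PM-LD the interval was 0.821 to 1.25 and for PM-L 0.741 to 1.12. A fall to below 0.75 therefore lay outside the intervals with zinc sulfate, MSH, PM-HD and PM-LD, and just inside that with PM-L. A rise above 1.25 lay inside the intervals with zinc sulfate, MSH (upper end 1.28) and PM-HD (upper end 1.38). It lay outside that with PM-L and just outside that with PM-LD (upper end 1.246).

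Asb2 was lower in zinc sulfate rats than in saline rats. The signal was 7473.1, 8762, 10591.3 and 9008.6 in saline rats (8959 ± 1279.8, n = 4) and 7064.2, 5533.8, 5829.2 and 7949 in zinc sulfate rats (6594 ± 1120.4). On these signals 3 of 4 zinc sulfate rats lay below the lowest saline rat, and zinc sulfate replicate 4 lay above it. After quantile normalization, which gives every array the same distribution of values, the 4 zinc sulfate rats all lay below the 4 saline rats, with log2 values of 12.23 to 12.68 against 12.92 to 13.32. In rank, Asb2 was the 147th to 214th brightest probe set of the array in saline rats and the 259th to 374th in zinc sulfate rats.

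The log2 fold change of zinc sulfate against saline was -0.60 (SE 0.16, n = 4 and 4), a fold of 0.660 with a 95% interval of 0.522 to 0.836. Asb2 thus passed the study thresholds, an unadjusted limma p under 0.05 and a fold below 0.75, as did 4.46% of all probe sets in either direction and 2.05% in the lower one. It was the 33rd smallest p of 15866, and the limma p adjusted over all probe sets was 0.851. No probe set passed an adjusted p of 0.05 in this comparison by limma, whereas 780 (4.92%) had an unadjusted p under 0.05. Beside the unadjusted limma p of 0.00189, the exact permutation test, two-sided, gave p = 0.0286 on the normalized values, the smallest that 4 against 4 arrays can give, and p = 0.0571 on the signals. Groups that did not overlap in the lower direction were found for 1.38% of probe sets. With centering of each array on its median in place of quantile normalization the log2 fold change was -0.35 (adjusted p = 0.976) and did not pass. The signals as the authors scaled them gave -0.45, which passed. In these bulk samples fewer cells that express Asb2 and less Asb2 RNA per cell cannot be told apart.

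In MSH and PM-HD rats Asb2 passed no threshold against saline. MSH rats had 9743.2, 8817.7, 7896.7 and 8623.9 (8770.4 ± 760.1), all inside the range of the saline rats, with a log2 fold change of -0.04 (SE 0.16, exact permutation p = 0.80). PM-HD rats had 9010.5, 8488.2, 10241.4 and 5919.5 (8415 ± 1819). The first 3 of them lay inside the saline range and replicate 4 lay below it, and the log2 fold change was -0.10 (SE 0.16, exact permutation p = 0.571), or 0.01 without replicate 4. The 95% interval of the fold was 0.770 to 1.23 for MSH and 0.735 to 1.18 for PM-HD. Of the 3 genes, 0 passed the thresholds with MSH (3.57% of all probe sets) and 0 with PM-HD (3.67%).

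The mean Asb2 signals of PM-LD and PM-L rats lay between those of saline and zinc sulfate rats. PM-LD rats had 7957.8, 7028.5, 5572.4 and 6774.9 (6833 ± 982), and 3 of 4 lay below the lowest saline rat. PM-L rats had 7980.1, 6533.9, 6160.9 and 7259.3 (6984 ± 806), and again 3 of 4 lay below the lowest saline rat. The log2 fold change was -0.41 for PM-LD (SE 0.15, limma adjusted p = 0.999) and -0.34 for PM-L (SE 0.15, limma adjusted p = 0.999). Both had an unadjusted p under 0.05, as did 4.49% (PM-LD) and 4.65% (PM-L) of all probe sets, and neither passed, since the folds of 0.752 and 0.788 missed the limit of 0.75. The share of all probe sets that did pass was 4.11% for PM-LD and 4.25% for PM-L. The exact permutation p was 0.0571 for PM-LD, and for PM-L it was 0.0286 on normalized values, where the groups did not overlap (1.05% of all probe sets in that direction), and 0.0571 on signals.

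The calls for these groups turned on single arrays and on the limit. Asb2 passed in PM-LD rats without PM-LD replicate 1 (log2 fold change -0.48), without saline replicate 1 (-0.48) and without saline replicate 2 (-0.44). In PM-L rats the unadjusted p of limma was no longer under 0.05 without PM-L replicate 2 (-0.27), saline replicate 3 (-0.28) or saline replicate 4 (-0.31). Atrial markers were higher in PM-L than in saline rats by a median log2 of 1.30 over 4 of 5 listed markers, of which 1 passed the thresholds, and their summed signal ran from 4582 to 43218 against 2667 to 24938 in saline rats. With the atrial mean as a covariate the Asb2 log2 fold change was -0.28 for PM-L, -0.39 for PM-LD and -0.58 for zinc sulfate, and of these zinc sulfate passed. In PM-LD rats the atrial markers had a median log2 fold change of 0.47 and in zinc sulfate rats of 0.33, with 0 of 4 past the thresholds in both. The 5 comparisons share the 4 saline arrays.

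**Figure D2:**
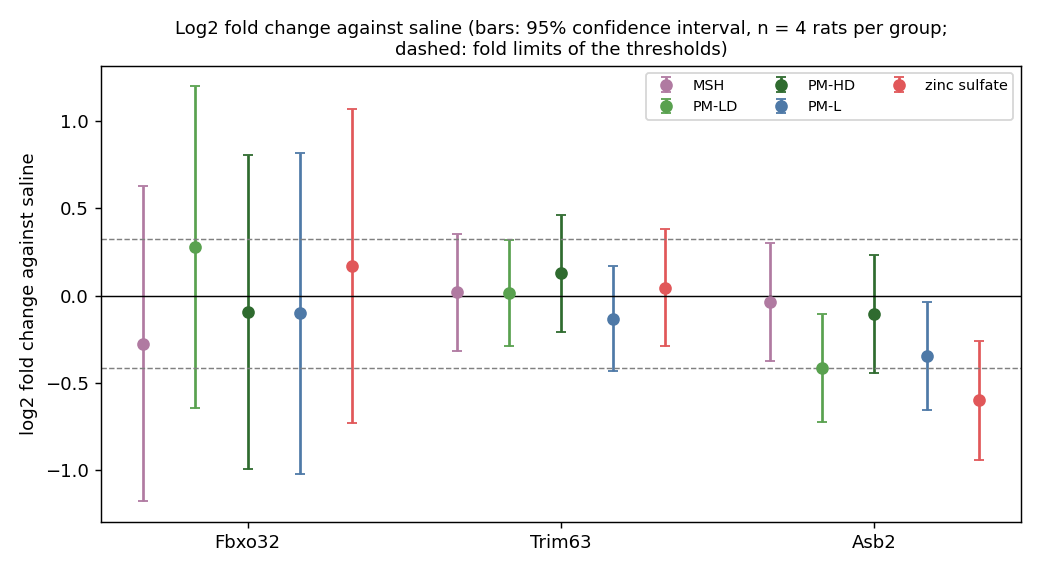
Log2 fold change of Fbxo32, Trim63 and Asb2 in each exposure group against saline (points, with 95% confidence intervals from limma, n = 4 rats per group), and the fold limits of the study thresholds (dashed). Only Asb2 with zinc sulfate, at -0.60, passed the thresholds, and the intervals of Fbxo32 were the widest.

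Further comparisons set zinc against particles without soluble zinc and against the leached fraction. Zinc sulfate rats had less Asb2 than MSH rats, by a log2 fold change of -0.56 (SE 0.16, limma adjusted p = 0.502), a fold of 0.677 with a 95% interval of 0.535 to 0.857. Here 6.66% of all probe sets passed, 2.99% in the lower direction. The groups did not overlap on normalized values (exact permutation p = 0.0286), as for 2.45% of probe sets in that direction, and 3 of 4 zinc sulfate rats lay below the lowest MSH rat on signals (exact permutation p = 0.0571). It did not pass with median centering (-0.27) or without the arrays of high atrial markers (-0.41). In the same comparison 2 of 4 fibroblast markers and 1 of 4 smooth muscle markers were lower with zinc sulfate, and their part in the result was not tested. Fibroblast markers summed to 12620 to 14812 in zinc sulfate rats and 14539 to 20508 in MSH rats.

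Zinc sulfate and PM-L rats differed in Asb2 by -0.26 on the log2 scale (SE 0.15, exact permutation p = 0.114, 4.13% of probe sets passed), with a 95% interval of the fold of 0.676 to 1.04. PM-HD rats had more Asb2 than PM-LD rats, by 0.31 (SE 0.15, exact permutation p = 0.0857, 4.66% of probe sets passed), which did not pass, with a 95% interval of the fold of 0.998 to 1.53. It passed without PM-HD replicate 4 (0.42) and without PM-LD replicate 1 (0.37). The order of the group means of Asb2 was saline, MSH, PM-HD, PM-L, PM-LD and zinc sulfate, and each neighbour in it overlapped the next and differed from it by less than the larger SD.

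**Figure D3:**
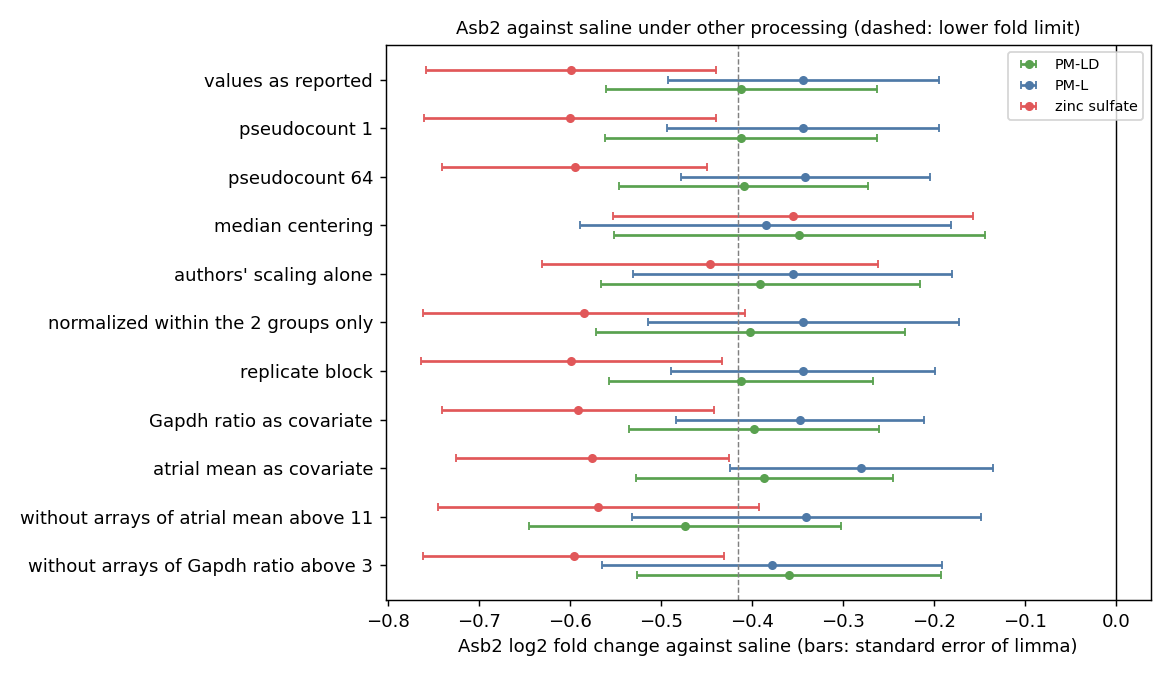
Asb2 log2 fold change against saline (points, bars SE of limma) for PM-LD, PM-L and zinc sulfate under 11 ways of processing the same arrays, with the lower fold limit dashed. Zinc sulfate moved from -0.60 to -0.35 with median centering, and all values of the 3 groups stayed below 0.

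The groups explained different shares of the variation of each gene. Between-group differences made up 66.1% of the variance of normalized Asb2 values, 21.1% for Trim63 and 9.18% for Fbxo32, where the median over all probe sets was 18.9%. The within-group SD on the log2 scale was 0.18 for Asb2, 0.17 for Trim63 and 0.66 for Fbxo32, and 0.39 at the median of all probe sets. A single limma F test over the 6 groups (n = 24 arrays) gave p = 0.00300 for Asb2 (adjusted p = 0.644), 0.640 for Trim63 and 0.837 for Fbxo32. None of the 3 passed an adjusted p of 0.05, nor did any of the 15866 probe sets by limma (0%), of which 795 (5.01%) had an unadjusted p under 0.05.

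The 3 genes did not move together from rat to rat. Over 24 arrays Pearson's r was 0.205 for Fbxo32 and Trim63 (permutation p = 0.339, adjusted 0.508), 0.253 for Trim63 and Asb2 (permutation p = 0.236, adjusted 0.508) and -0.0753 for Fbxo32 and Asb2 (permutation p = 0.729, adjusted 0.729). Spearman's rho was 0.137, 0.322 and -0.147 (permutation p = 0.524, 0.125 and 0.488, adjusted 0.524, 0.375 and 0.524), over 3 pairs. Without the 2 arrays farthest from the median of the first gene named in each pair, r was 0.113, 0.228 and -0.217. Arrays far from the median of the second gene alone were kept. Within groups it was 0.225, 0.372 and 0.173. The sign for Fbxo32 and Asb2 depended on the scaling and was 0.449 with median centering.

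By likeness of pattern over the 24 arrays, with no test, the genes nearest to Asb2 were S100a3 (r = 0.807), Smdt1 (r = 0.791) and Slc38a2 (r = 0.744). S100a3 is a small calcium- and zinc-binding protein, Smdt1 a subunit of the mitochondrial calcium uniporter and Slc38a2 a transporter of neutral amino acids. The mean signal of S100a3 was 374 in saline, 412 in MSH, 355 in PM-HD, 287 in PM-L, 213 in PM-LD and 211 in zinc sulfate rats. Slc38a2 had 2140.4, 2269, 1949, 1625, 1449 and 1501 in the same groups. Within groups r was 0.691 for S100a3, 0.607 for Smdt1 and 0.226 for Slc38a2, and r for S100a3 was 0.337 with median centering. Trim63 was nearest to Myh6, the alpha myosin heavy chain (r = 0.660), which fell to 0.146 with median centering, then to Apbb1, an adaptor of the amyloid precursor protein (r = 0.610), and Vasn (r = 0.601). Fbxo32 was nearest to Pex19, a chaperone of peroxisomal membrane proteins (r = 0.848), the neurotrophin Bdnf (r = 0.785) and Ppt2, a lysosomal thioesterase (r = 0.777). All genes of an array share its scaling and its RNA.

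Around the 3 ligases, 7 lists of genes were read by how many members passed the study thresholds against saline. The partners that the ligases need, the SCF and cullin 5 complexes with their NEDD8 machinery, were all on the array (12 of 12), and 0 passed in any of the 5 comparisons. Of all probe sets, 3.57% passed with MSH, 3.67% with PM-HD, 4.11% with PM-LD, 4.25% with PM-L and 4.46% with zinc sulfate. At such shares 0 of 12 is not a result about the partners. Cul5, the scaffold of the Asb2 ligase, was at -0.06 (SE 0.19) with zinc sulfate, Rnf7, its RING subunit, at 0.18 (SE 0.23), Elob at 0.01 (SE 0.13) and Eloc at -0.02 (SE 0.19). The median log2 fold change of the partners with zinc sulfate was 0.01, beside -0.01 for all probe sets. Cul1 and Skp1, the scaffold and adaptor that hold Fbxo32, were at 0.15 (SE 0.11) and 0.01 (SE 0.22).

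Of other muscle ubiquitin ligases, 19 of 35 listed were measured. With zinc sulfate 2 rose and 0 fell, where 2.41% of all probe sets rose. The adjusted p of limma given for each gene is over all probe sets, and no gene of these lists passed 0.05 by it. Mdm2, the ligase of p53, was at 168 ± 52.0 in saline and 259 ± 66.1 in zinc sulfate rats, a log2 fold change of 0.71 (SE 0.25, adjusted p = 0.999). Stub1, the chaperone-linked ligase CHIP, was at 1528 ± 219.6 and 2133 ± 278, a log2 fold change of 0.45 (SE 0.20, adjusted p = 0.999). Mdm2 also rose with PM-LD (2.24% of all probe sets), to 284 ± 23.2 (0.80, SE 0.23, adjusted p = 0.952). In the MSH, PM-HD and PM-L rats 0 of 19 passed (3.57%, 3.67% and 4.25% of all probe sets). Trim54, a MuRF relative of Trim63, was at -0.06 (SE 0.16) and Trim32 at 0.15 (SE 0.13) with zinc sulfate. The zinc sulfate call of Mdm2 did not pass without saline replicate 2 (0.50). That of Stub1 was lost on leaving out zinc sulfate array 1 (0.46), 2 (0.44) or 4 (0.39), or saline array 2 (0.45) or 4 (0.35), and also without the arrays of Gapdh ratio above 3 (0.40).

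Ubiquitin itself and its activating and conjugating enzymes were measured in 13 of 18 cases. Ube2j1, a conjugating enzyme of the endoplasmic reticulum, fell with PM-L from 260.3 ± 37.0 to 174 ± 27.3 (-0.59, SE 0.18, adjusted p = 0.821) and with zinc sulfate to 180 ± 58.2 (-0.45, SE 0.19, adjusted p = 0.999), and no other member passed. With PM-L 1.82% of all probe sets fell, and with zinc sulfate 2.05%. The zinc sulfate call was lost on leaving out zinc sulfate array 1 (-0.41), 2 (-0.36) or 3 (-0.36), or saline array 1 (-0.44) or 4 (-0.40), and also without the arrays of Gapdh ratio above 3 (-0.31). Of 8 deubiquitinating enzymes (13 listed) and 19 calpain, lysosome and autophagy genes (22 listed), 0 passed in any of the 5 comparisons with saline. In these comparisons 3.57% to 4.46% of all probe sets passed, so a count of 0 in lists this short is not a result about them.

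The FOXO, insulin and glucocorticoid genes, which control Fbxo32 and Trim63 in wasting muscle, were all on the array (34 of 34). With zinc sulfate 3 fell, where 2.05% of all probe sets fell, and 0 rose. Sgk1, a glucocorticoid-induced kinase, went from 1157 ± 342 to 587 ± 259 (-0.94, SE 0.34, adjusted p = 0.999), Irs2, an insulin receptor substrate, from 353 ± 82.2 to 173 ± 94.9 (-1.10, SE 0.44, adjusted p = 0.999), and Irs1 from 91.7 ± 35.2 to 43.8 ± 8.98 (-0.71, SE 0.31, adjusted p = 0.999). With PM-HD 2 fell (1.63% of all probe sets), Irs1 to 41.6 ± 23.8 (-0.92, SE 0.31, adjusted p = 0.999) and the activin receptor Acvr2b from 152 ± 40.4 to 105 ± 54.1 (-0.56, SE 0.25, adjusted p = 0.999). Irs1 was dim, as Fbxo32 was, with signals close to the range where background weighs most. With MSH, PM-LD and PM-L 0 passed (3.57%, 4.11% and 4.25% of all probe sets). Foxo1 was at -0.22 (SE 0.35), Foxo3 at 0.23 (SE 0.19) and Klf15, a glucocorticoid-induced factor, at 0.13 (SE 0.21) with zinc sulfate. The median of the list with zinc sulfate was 0.00, beside -0.01 for all probe sets.

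Most of these insulin-pathway calls were lost in at least 1 of the fits that left out 1 array. Where Irs1 with zinc sulfate lost its call, its log2 fold change lay in some fits above and in others below the -0.71 of all arrays. Irs2 lost its call without array 3 of zinc sulfate (-0.47) or of saline (-0.96), and Sgk1 without array 4 of saline (-0.75). The call of Irs1 with zinc sulfate was lost on leaving out zinc sulfate array 2 (-0.69), 3 (-0.73) or 4 (-0.65), or saline array 2 (-0.68), 3 (-0.74) or 4 (-0.59). It was also lost in 4 of 16 alternatives other than leaving out 1 array, among them a pseudocount of 1 (-0.87). Irs1 with PM-HD passed on leaving out any 1 array (-1.18 to -0.58), but not in the test with unequal variances or without the arrays of Gapdh ratio above 3 (-0.25), of which PM-HD had 2 and saline 1. That of Acvr2b was lost without PM-HD array 2 (-0.50) or 3 (-0.28), or saline array 1 (-0.59), 3 (-0.51) or 4 (-0.50), and it was also lost without the arrays of high Gapdh ratio (-0.24) and in 10 of 17 alternatives other than leaving out 1 array. Irs2 moved to -0.54 without the arrays of high Gapdh ratio.

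Of the proteins that the 3 ligases are known to bind or mark, 22 of 24 were measured. Tcap, the titin cap of the Z-disc and a binding partner of MuRF proteins, rose with PM-L (2.43% of all probe sets) from 12329 ± 2411 to 19166 ± 1968 (0.63, SE 0.16, adjusted p = 0.707) and with PM-LD to 16735 ± 1494 (0.46, SE 0.16, adjusted p = 0.999). The PM-LD call of Tcap was lost without the arrays of Gapdh ratio above 3 (0.29) and with normalization within the 2 groups (0.44). It was at 0.36 with zinc sulfate (SE 0.17), 0.35 with PM-HD (SE 0.17) and 0.16 with MSH (SE 0.17). Of all probe sets, 2.24% rose with PM-LD and 2.04% with PM-HD. Jun fell with PM-HD (1.63% of all probe sets) from 1070.2 ± 134 to 696 ± 72.4 (-0.61, SE 0.14, adjusted p = 0.621). Myod1, a skeletal muscle factor and substrate of Fbxo32, passed with PM-HD (1.21, SE 0.38, adjusted p = 0.999) and PM-LD (0.88, SE 0.36, adjusted p = 0.999), but its signal was 8.15 ± 2.79 in saline, 44.2 ± 28.8 in PM-HD and 27.6 ± 9.58 in PM-LD rats, at the dim end of the array. The PM-HD call of Myod1 was lost without the arrays of Gapdh ratio above 3 (0.74). The PM-LD call of Myod1 did not pass without PM-LD replicate 1 (0.77) or 2 (0.81) or saline replicate 1 (0.82).

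The filamins and desmin, which the Asb2 ligase marks, passed in no comparison with saline. At shares of 3.57% to 4.46% of all probe sets, that is not a result about them. With zinc sulfate, where Asb2 was lowest, Flna was at -0.20 (SE 0.34), Flnc at -0.05 (SE 0.38) and Des at 0.27 (SE 0.66). No thick-filament target of Trim63 passed with zinc sulfate either, with Myl2 at -0.07 (SE 0.11), Mybpc3 at -0.03 (SE 0.12) and Myh6 at -0.05 (SE 0.11). These are transcript levels, and protein amounts were not measured on the arrays.

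**Figure D4:**
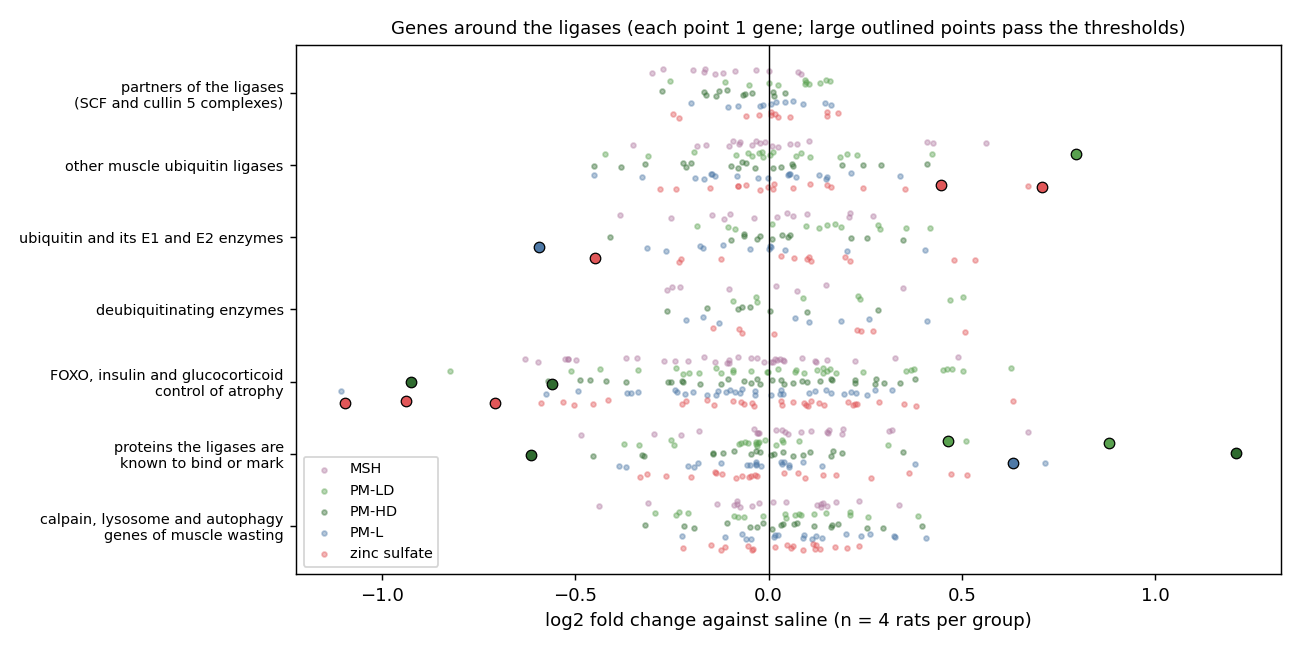
Log2 fold change against saline (n = 4 rats per group) of each gene in 7 lists around the ligases, 1 point per gene and exposure group, with genes past the study thresholds outlined. With zinc sulfate 2 other ligases rose (2.41% of all probe sets) and 3 FOXO, insulin and glucocorticoid genes fell (2.05%). In no group did any of the 12 ligase partners pass (3.57% to 4.46% of all probe sets).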

How the data were processed

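The deposited table holds 1 column of linear signal intensity per array, computed by the authors with Affymetrix Microarray Suite 5.0 (MAS5) and scaled to a common trimmed mean (500.1 to 500.2 on every array). Values run from 0.1 to 61915, and no depth of counting applies, so the count of arrays sets the precision. Of 15923 probe sets, 57 controls were left out. After adding 16, signals were log2 transformed, and all 24 arrays were quantile normalized together. Limma 3.58.1 in R 4.3.3 fitted 1 mean per group, on 24 arrays where PM-LD or PM-L entered and otherwise on the 16 arrays of the remaining groups, and the thresholds followed the methods of the study (p under 0.05, fold above 1.25 or below 0.75). Adjusted p is Benjamini-Hochberg over 15866 probe sets. The robust multiarray values of the study's own tests were not used here. Exact permutation tests were two-sided over 70 arrangements, and correlation p-values come from 100000 permutations. The fit was tested on simulated data with known changes.

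Replicates are separate rats by their labels. The 3 genes and the 7 lists were chosen with earlier results of these data known. Named genes were the 3 ligases, the 3 genes most like each, and up to 3 members of a list that passed per comparison with saline by lowest p. Values of list members that did not pass, given for their role, were chosen after the values were seen. List genes with several probe sets were read from the brightest. Alternatives were other pseudocounts, median centering, an intensity trend, leaving out dim probe sets, other sets of arrays in the fit, the replicate number as a block, other fold limits, an unmoderated test, the Gapdh ratio or the atrial mean as a covariate, and leaving out each array. Further ones (the authors' scaling alone, normalization within 2 groups, leaving out arrays of high atrial markers or Gapdh ratio, and the same settings for correlations) were chosen after seeing the data.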

Additional observations from a re-analysis of the deposited data

Results flagged for a closer look

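Asb2 in PM-L replicate 2 was flagged because it stood apart from the other PM-L rats. Its signal was 6533.9, and on the normalized log2 scale it was at 12.56 against 12.84 to 12.88 in the other PM-L rats, a gap of 0.893 of the range of the group. On the signals themselves it was not the lowest, since PM-L replicate 3 had 6160.9. Without PM-L replicate 2, the Asb2 log2 fold change of PM-L against saline was -0.27 (limma adjusted p = 0.945). Its atrial marker mean was the highest of all 24 arrays, at 13.2 on the log2 scale, and its Gapdh ratio the lowest, at 1.11. The part of either in the value was not tested. Of 18 groups tested in this way, 1 was flagged, and chance flags about 1 in 20.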

How the results depend on the processing

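Asb2 passed with zinc sulfate against saline under every alternative run except median centering (log2 fold change -0.35, 0 of the 3 genes past the thresholds), and over the fits that left out 1 array its log2 fold change ran from -0.67 to -0.50. Against MSH it did not pass with median centering (-0.27) or without the arrays of atrial mean above 11 (-0.41), where 0 of 3 genes passed. The count of genes past the thresholds with PM-LD went from 0 to 1, by Asb2, with a symmetric lower limit of 0.8, with no fold limit, and without the arrays of atrial mean above 11 (-0.47), and with PM-L it went from 0 to 1 with the symmetric limit and with no fold limit. Over fits without 1 array the count ran from 0 to 1 with PM-LD and for PM-HD against PM-LD. The labels share replicate numbers between groups, but deviations of arrays of the same number correlated from -0.26 to 0.52 between pairs (mean per number -0.03 to 0.18), so the numbers were not taken as pairs. With the replicate number as a block, Asb2 with zinc sulfate was at -0.60 (limma adjusted p = 0.929) and no call of the 3 genes changed. No difference over the 6 groups passed an adjusted p of 0.05 under any alternative run. Of the alternatives other than leaving out 1 array, those that ended a zinc sulfate call of a list gene were 6 of 17 for Ube2j1, 4 of 17 for Stub1 and for Irs2, 4 of 16 for Irs1 and 0 of 17 for Sgk1 and Mdm2. The causes were not tested.

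Signs changed only for differences that passed no threshold. With median centering Trim63 with MSH was at -0.063 and Asb2 of zinc sulfate against PM-L at 0.030. With the atrial mean as a covariate Asb2 with MSH was at 0.032. Without the arrays of atrial mean above 11, Trim63 was at -0.021 with MSH and -0.053 with PM-LD, and Fbxo32 at -0.11 with PM-LD. Without the arrays of Gapdh ratio above 3, Fbxo32 was at 0.11 with MSH, 0.39 with PM-HD and 0.32 with PM-L, and Trim63 at -0.11 with MSH. Leaving out 1 array, Asb2 ran from -0.11 to 0.028 with MSH and -0.20 to 0.0056 with PM-HD, Trim63 from -0.057 to 0.11 with MSH, -0.021 to 0.099 with zinc sulfate, -0.026 to 0.069 with PM-LD and -0.066 to 0.10 for zinc sulfate against MSH, and Fbxo32 from -0.31 to 0.37 with PM-HD, -0.0024 to 0.33 with zinc sulfate, -0.37 to 0.22 with PM-L, -0.052 to 0.54 for zinc sulfate against PM-L and -0.63 to 0.095 for PM-HD against PM-LD.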
